A study of Mus musculus with 36 samples.

Results

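The liver of mice on a high fat diet was compared between ZT20, in the later part of the active dark phase, and ZT8, in the later part of the resting light phase. Zeitgeber time (ZT) is the number of hours since the lights came on. The comparison rests on 6 of the 36 samples of the series, the 3 labelled ZT20 and the 3 labelled ZT8 on high fat diet. All 36 livers came from C57BL/6J mice, an inbred laboratory strain, killed at 16 weeks of age after 10 weeks on 1 of 2 diets. In the high fat diet 60% of the calories were fat, and the other diet was normal chow. The animals ate ad libitum under 12 h of light a day, and 3 samples per diet were taken at each of 6 times, 4 h apart. The ZT20 and ZT8 samples on chow (3 each) are compared below only to test whether the step between the times differed between the diets. All 36 samples entered the filter on dim genes and the fit behind each standard error (SE) and p-value. The labels used here do not give the sex of the animals or say how the 3 samples of a group were kept apart. A p-value here therefore reflects only how far samples scattered within groups. That scatter was pooled for each gene over all 12 groups of diet and time and drawn toward that of other genes. The SE of a gene can therefore differ from the spread of the 6 samples printed beside it.

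The circadian clock of the liver cell is a transcription loop. CLOCK and BMAL1 (gene Arntl) bind E-box sequences and switch on the Per and Cry genes and the REV-ERB genes Nr1d1 and Nr1d2, whose proteins then repress CLOCK and BMAL1 activity or Arntl transcription, while ROR proteins oppose the REV-ERBs at shared DNA elements. In liver the loop drives many genes of lipid, bile acid and glucose metabolism directly or through D-box factors such as DBP, and feeding, which mice do mostly in the dark, adds rhythms of its own.

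Each sample was hybridised to 1 whole-transcript Affymetrix array, and levels are given as log2 of the deposited intensity plus 16. A difference of 1 on this scale is a doubling of intensity plus 16, so changes of dim genes are understated. Across the 13956 genes tested, log2 levels correlated at 0.984 to 0.991 between samples of the ZT20 group and likewise at 0.984 to 0.991 within the ZT8 group, and at 0.973 to 0.983 between ZT20 and ZT8 samples. The hepatocyte genes Alb, Ttr, Trf and Ahsg were among the brightest, with Alb at 13.44 to 13.65 at ZT20 and 13.49 to 13.66 at ZT8. Because these are pieces of whole liver, fewer cells of a type and less RNA per cell cannot be told apart.

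A gene was called when limma's Benjamini-Hochberg adjusted p over all tested genes was under 0.05. Of the 13956 genes, 959 (6.87%) were called, 443 (3.17%) higher and 516 (3.7%) lower at ZT20. The share of called genes given for each list below stands against this 6.87%. A change of at least 2-fold was present in 59 (0.423%) of the genes that rose and 29 (0.208%) of those that fell, counted as shares of all tested genes. The median size of the difference was 0.46 among called genes and 0.11 among all tested genes, and the median signed difference over all genes was -0.024. The 3 ZT20 values lay wholly above or below the 3 ZT8 values for 3106 genes (22.3%), which included 939 of the 959 called genes. The counts depended on single arrays. Without ZT20 sample 1 there were 348 higher and 258 lower calls, without ZT20 sample 2 there were 291 and 565, without ZT20 sample 3 347 and 273, without ZT8 sample 1 413 and 410, and without ZT8 sample 2 283 and 289.

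**Figure D1:**
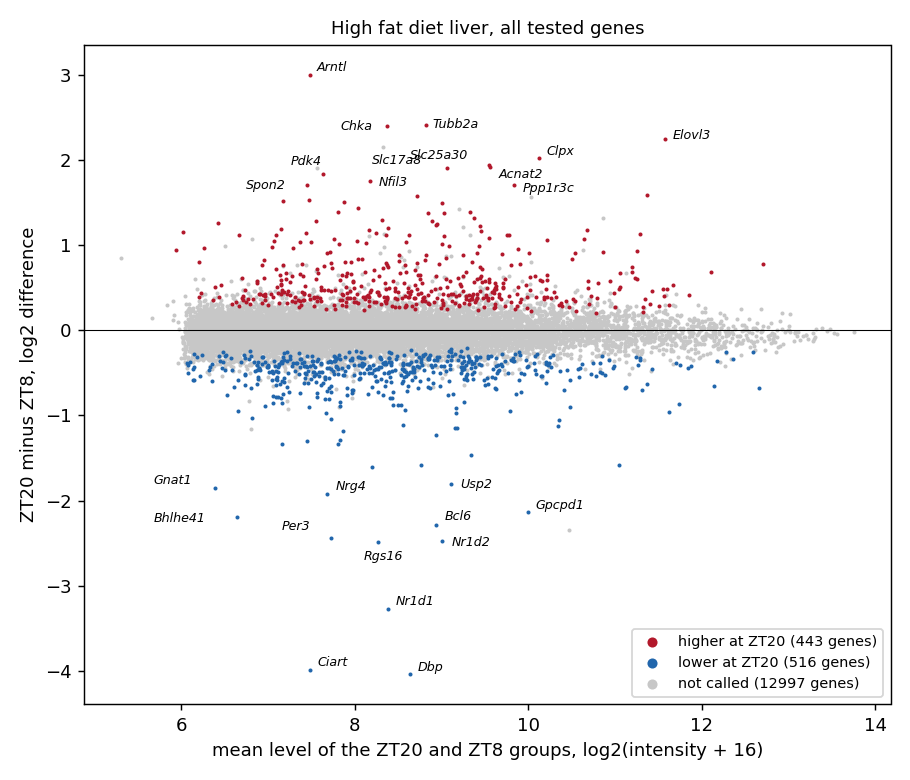
Difference between ZT20 and ZT8 (y axis, log2) against the mean level of both groups (x axis, log2 of intensity plus 16) for the 13956 tested genes in high fat diet liver, with the 443 genes called higher at ZT20 in red, the 516 called lower in blue and the others in grey. Arntl at 3.00 stands highest among called genes, and Dbp at -4.04 and Ciart at -3.99 lowest.

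For most of the called genes ZT20 or ZT8 was an extreme of the day. Of the 443 genes that rose, 254 had the highest of their 6 high fat diet group means at ZT20 and 322 the lowest at ZT8. Of the 516 that fell, 373 had their highest group mean at ZT8 and 348 their lowest at ZT20. The other called genes peaked elsewhere, for example 79 of the genes that rose at ZT0 and 56 of those that fell at ZT12. These counts describe the day and include the groups that made the calls.

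The clock activators were higher at ZT20. Arntl had log2 levels of 8.81, 9.15 and 8.97 in the ZT20 samples, against 5.92, 5.83 and 6.19 in the ZT8 samples. All 3 ZT20 samples stood far above all ZT8 samples, and the difference of 3.00 ± 0.20 (SE, limma adjusted p = 7.48e-12) corresponds to 8.01-fold (4.97-fold with an offset of 64 in place of 16, 10.2-fold with an offset of 1). Clock, which encodes the partner of BMAL1, had 10.12, 10.19 and 10.14 in the ZT20 samples, against 9.20, 9.17 and 9.39 in the ZT8 samples, a rise of 0.90 ± 0.098 (SE, limma adjusted p = 1.16e-07). Rora, a receptor that activates Arntl, had 10.12, 10.16 and 10.02 in the ZT20 samples, against 9.68, 9.90 and 9.84 in the ZT8 samples. Its groups did not overlap either, but the difference of 0.30 ± 0.099 (SE) had a limma adjusted p of 0.0719 and was not called. Thus 2 of the 3 tested activators (66.7%) were called, against 6.87% of all genes.

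All 10 tested clock repressors (100%) were called, 9 of them lower and 1 higher at ZT20, and their median difference was -1.74. Ciart, a repressor of CLOCK and BMAL1, had 5.32, 5.73 and 5.40 in the ZT20 samples, against 9.57, 9.40 and 9.45 in the ZT8 samples. It fell 15.9-fold (8.17-fold with an offset of 64 and 23.5-fold with an offset of 1), with a difference of -3.99 ± 0.28 (SE, limma adjusted p = 1.70e-11). Nr1d1, which encodes REV-ERB alpha, had 6.42, 7.07 and 6.75 in the ZT20 samples, against 9.96, 10.21 and 9.89 in the ZT8 samples, a difference of -3.27 ± 0.26 (SE). Nr1d2, which encodes REV-ERB beta, had 7.74, 8.02 and 7.56 in the ZT20 samples, against 10.23, 10.27 and 10.24 in the ZT8 samples, a difference of -2.47 ± 0.17 (SE). The ZT8 values of Nr1d2 spanned only a narrow range, whereas the ZT20 values of both genes were more spread. The Period genes fell by unequal amounts. Per3 had 6.28, 6.73 and 6.50 in the ZT20 samples, against 8.88, 9.02 and 8.92 in the ZT8 samples and fell by 2.43 ± 0.14 (SE). Per1 had 7.26, 7.26 and 7.03 in the ZT20 samples, against 8.59, 8.30 and 8.51 in the ZT8 samples and fell by 1.29 ± 0.21 (SE). Per2 had 7.74, 8.19 and 8.06 in the ZT20 samples, against 9.10, 9.12 and 9.11 in the ZT8 samples and fell by 1.11 ± 0.13 (SE). None of the 3 Period genes had overlapping groups, like 939 of the 959 called genes. Bhlhe41, which encodes the E-box repressor DEC2, had 5.22, 5.69 and 5.72 in the ZT20 samples, against 7.88, 7.59 and 7.74 in the ZT8 samples and fell by 2.19 ± 0.17 (SE), which was -1.46 with an offset of 64.

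The remaining repressors moved less or the other way. Cry2 had 8.08, 8.50 and 8.28 in the ZT20 samples, against 8.92, 8.93 and 8.66 in the ZT8 samples and fell by 0.55 ± 0.11 (SE, limma adjusted p = 0.00101). Bhlhe40, which encodes DEC1, had 8.95, 9.31 and 9.59 in the ZT20 samples, against 10.01, 9.65 and 10.24 in the ZT8 samples and fell by 0.69 ± 0.20 (SE, limma adjusted p = 0.0346), a call that was lost without ZT20 sample 1 or 2 or ZT8 sample 1 or 3 (adjusted p up to 0.22). Cry1 was the repressor that rose, with 8.56, 8.75 and 8.57 in the ZT20 samples, against 7.13, 7.0 and 7.25 in the ZT8 samples, a difference of 1.5 ± 0.12 (SE, limma adjusted p = 4.06e-10). Over the 6 times on high fat diet Cry1 was highest at ZT20 (8.63) and lowest at ZT4 (6.64), while Per3 was highest at ZT8 (8.94) and lowest at ZT0 (6.30). Both Cryptochromes were called, and they stood on opposite sides of this comparison.

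**Figure D2:**
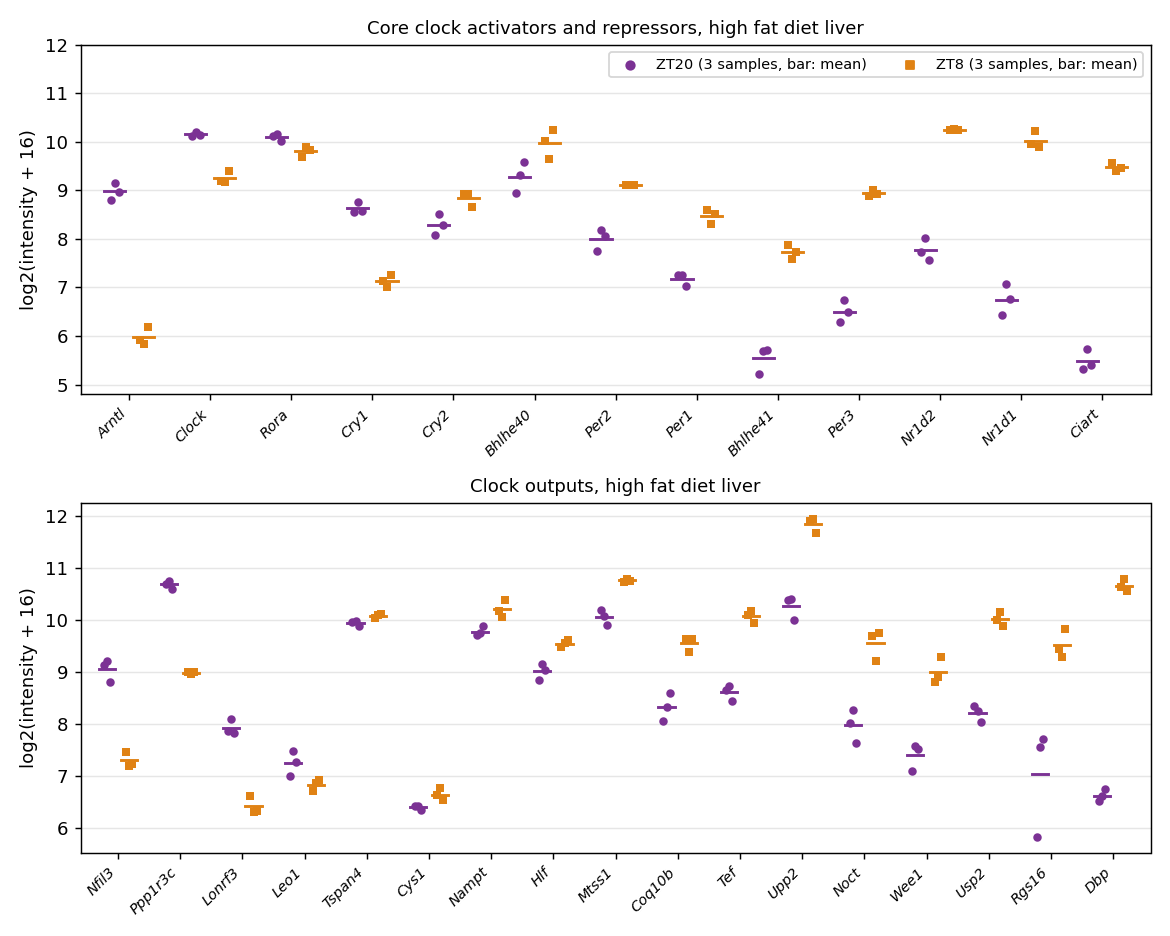
Log2 levels (y axis, log2 of intensity plus 16) of the 13 tested core clock genes (top) and of the 17 clock output genes not shown above them (bottom) in the 3 ZT20 samples (purple circles) and the 3 ZT8 samples (orange squares) on high fat diet, with bars at the group means. Arntl, Clock and Cry1 lie higher at ZT20, and the Per, Nr1d and DEC genes lie lower.

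Promoter windows of 5 called clock genes are printed to show where letters of the known clock elements lie. Windows of 250 bases before to 50 bases after the transcription start were taken from RefSeq (build GRCm38.p6) and searched on both strands for the E-box CACGTG, the D-box TTANGTAA and the core of the ROR and REV-ERB element, TAGGTCA or TGGGTCA. Among all 32544 windows, 7.17% held the E-box, 2.29% the D-box and 6.48% the ROR element core. The windows below are those of Arntl and Nfil3, which rose, of Ciart and Per3, which fell, and of Cry1, a repressor that rose, and capitals mark the matches. They are written along the gene's strand, so that in Nfil3 the ROR element core appears as its reverse complement.
Arntl promoter, chr7:113207261-113207560, plus strand: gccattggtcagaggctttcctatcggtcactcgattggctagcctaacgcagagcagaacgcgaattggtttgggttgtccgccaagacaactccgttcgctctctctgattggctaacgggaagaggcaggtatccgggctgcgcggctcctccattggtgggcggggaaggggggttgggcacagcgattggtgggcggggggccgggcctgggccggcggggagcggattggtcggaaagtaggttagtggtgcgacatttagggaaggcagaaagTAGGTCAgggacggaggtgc
Nfil3 promoter, chr13:52980990-52981289, minus strand: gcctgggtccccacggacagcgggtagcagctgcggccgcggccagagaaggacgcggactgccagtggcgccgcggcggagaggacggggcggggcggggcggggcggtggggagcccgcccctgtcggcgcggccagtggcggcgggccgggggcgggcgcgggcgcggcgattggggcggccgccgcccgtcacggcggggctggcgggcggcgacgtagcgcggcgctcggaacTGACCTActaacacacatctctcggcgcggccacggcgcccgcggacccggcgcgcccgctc
Ciart promoter, chr3:95882179-95882478, minus strand: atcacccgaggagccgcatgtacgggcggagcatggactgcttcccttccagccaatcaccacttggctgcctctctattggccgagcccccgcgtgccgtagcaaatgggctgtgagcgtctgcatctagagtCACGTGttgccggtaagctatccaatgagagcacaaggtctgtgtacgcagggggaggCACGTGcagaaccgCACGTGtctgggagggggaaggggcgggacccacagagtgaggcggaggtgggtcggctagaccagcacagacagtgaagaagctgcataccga
Cry1 promoter, chr10:85185005-85185304, minus strand: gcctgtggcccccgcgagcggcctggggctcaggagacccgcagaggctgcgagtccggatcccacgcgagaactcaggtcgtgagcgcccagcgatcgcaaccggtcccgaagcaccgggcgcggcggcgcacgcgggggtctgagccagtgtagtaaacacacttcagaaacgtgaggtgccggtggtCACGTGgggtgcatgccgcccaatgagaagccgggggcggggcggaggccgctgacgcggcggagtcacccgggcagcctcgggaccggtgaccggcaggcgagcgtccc
Per3 promoter, chr4:151044616-151044915, minus strand: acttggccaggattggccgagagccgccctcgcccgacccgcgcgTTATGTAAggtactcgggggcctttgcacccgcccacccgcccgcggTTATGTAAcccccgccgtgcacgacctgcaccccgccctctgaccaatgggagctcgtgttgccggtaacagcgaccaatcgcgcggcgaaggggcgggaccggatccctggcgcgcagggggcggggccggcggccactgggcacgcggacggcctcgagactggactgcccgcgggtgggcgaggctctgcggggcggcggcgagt

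The printed window of Arntl held 1 ROR element core, and the other of its 2 windows held 0. Nfil3 and Leo1, outputs that rose, also held 1 each. Among genes that rose and had a window, the core was in 1 of 2 activators, 2 of 4 outputs and 0 of 1 repressor. The core was found in 0 of the 7 repressors and 0 of the 10 outputs that fell and had a window. Ciart, which fell, held 3 E-boxes and Cry1, which rose, held 1, so the E-box was present in genes that moved both ways. Of the 7 repressors that fell and had a window, 3 held an E-box and 1, Per3, held 2 D-boxes. An E-box was also in 3 of the 10 outputs that fell and 2 of the 4 that rose. The windows of Clock, Nr1d1, Nr1d2, Cry2, Dbp and Hlf held none of these elements. Matches describe these letters in these windows and say nothing of whether a factor was bound.

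Clock outputs were called at nearly the rate of the core genes. Ciart also counts here, and 16 of 18 tested genes (88.9%) were called, 4 higher and 12 lower at ZT20. Dbp, a D-box activator, had 6.51, 6.60 and 6.74 in the ZT20 samples, against 10.63, 10.79 and 10.55 in the ZT8 samples. It fell 16.5-fold or -4.04 ± 0.17 on the log2 scale (SE, limma adjusted p = 6.81e-17). With the offset of 16 this was a larger fall than that of Ciart, while with an offset of 1 Ciart fell further (-4.56 against -4.27 for Dbp). Its relatives Tef and Hlf fell by 1.47 ± 0.13 and 0.53 ± 0.096 (SE). Nfil3, a repressor at the same D-boxes, had 9.13, 9.21 and 8.80 in the ZT20 samples, against 7.46, 7.19 and 7.23 in the ZT8 samples and rose by 1.75 ± 0.14 (SE, limma adjusted p = 4.41e-10). Activators and repressor of the D-box thus lay on opposite sides, as the plot of clock genes by sample shows.

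Other outputs that fell included Usp2, a deubiquitinase, at 8.34, 8.24 and 8.03 in the ZT20 samples, against 10.00, 10.16 and 9.88 in the ZT8 samples. It fell by 1.81 ± 0.21 (SE). Upp2, a uridine phosphorylase, had 10.37, 10.39 and 10.01 in the ZT20 samples, against 11.90, 11.94 and 11.66 in the ZT8 samples and fell by 1.58 ± 0.13 (SE). Wee1, a kinase that delays entry into mitosis, had 7.09, 7.57 and 7.52 in the ZT20 samples, against 8.81, 8.91 and 9.29 in the ZT8 samples and fell by 1.61 ± 0.21 (SE). None of these 3 genes had overlapping groups, as was the case for 939 of the 959 called genes. Noct, the nocturnin gene, fell by 1.58 ± 0.26, Coq10b, a coenzyme Q binding protein gene, by 1.23 ± 0.13 and Mtss1, an actin-linked membrane protein gene, by 0.71 ± 0.084 (SE). Nampt, which makes the NAD precursor nicotinamide mononucleotide, fell by 0.43 ± 0.12 (SE), a call lost without ZT20 sample 1 or 2 or ZT8 sample 1 or 3 (adjusted p up to 0.146). Ppp1r3c, which directs protein phosphatase 1 to glycogen, had 10.70, 10.75 and 10.60 in the ZT20 samples, against 8.99, 8.95 and 8.99 in the ZT8 samples and rose by 1.71 ± 0.23 (SE). Lonrf3 and Leo1 rose by 1.51 ± 0.13 and 0.42 ± 0.09 (SE). Rgs16, a regulator of G protein signalling, had 5.83, 7.55 and 7.70 in the ZT20 samples, against 9.44, 9.28 and 9.83 in the ZT8 samples. ZT20 sample 1 stood well below the others, and the group fell by 2.49 ± 0.67 (SE, limma adjusted p = 0.0197), a call lost without ZT20 sample 1 or ZT8 sample 3 (adjusted p up to 0.158), with -1.89 without the first.

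Outside the clock, the largest rises included a tubulin, choline kinase and mitochondrial genes. Tubb2a, a beta tubulin, had 9.71, 10.22 and 10.14 in the ZT20 samples, against 7.72, 7.02 and 8.09 in the ZT8 samples and rose by 2.41 ± 0.28 (SE). Chka, choline kinase alpha, which begins phosphatidylcholine synthesis from choline, had 9.39, 9.69 and 9.64 in the ZT20 samples, against 7.05, 6.90 and 7.58 in the ZT8 samples and rose 5.25-fold. Clpx, the ATPase of a mitochondrial protease, had 11.04, 11.24 and 11.13 in the ZT20 samples, against 9.09, 8.87 and 9.40 in the ZT8 samples and rose 4.05-fold. All 3 genes had ZT20 values at least as tight as their ZT8 values, in which sample 2 was the lowest.

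Slc25a30, a mitochondrial carrier, had 10.99, 10.15 and 10.42 in the ZT20 samples, against 8.67, 8.34 and 8.73 in the ZT8 samples, a rise of 1.95 ± 0.39 (SE). Acnat2, an acyltransferase that conjugates fatty acids to amino acids, had 10.52, 10.07 and 10.95 in the ZT20 samples, against 8.69, 8.35 and 8.76 in the ZT8 samples, a rise of 1.91 ± 0.32 (SE). Slc17a8, a vesicular glutamate transporter, had 9.57, 10.09 and 10.40 in the ZT20 samples, against 8.26, 7.56 and 8.52 in the ZT8 samples, a rise of 1.91 ± 0.31 (SE). These 3 genes varied more within the ZT20 group than Clpx did. The secreted matrix protein gene Spon2 had 7.87, 8.31 and 8.72 in the ZT20 samples, against 6.48, 6.64 and 6.66 in the ZT8 samples, a rise of 1.70 ± 0.21 (SE). Limma adjusted p-values for the 7 genes of these paragraphs ran from 3.41e-12 for Clpx to 0.00113 for Slc25a30. In each of them the groups did not overlap, as the rule for naming them required.

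The largest falls beside the clock were those of Bcl6, Gpcpd1, Nrg4 and Gnat1. Bcl6, a transcriptional repressor active in hepatic lipid metabolism, had 7.65, 8.49 and 7.23 in the ZT20 samples, against 10.00, 10.40 and 9.84 in the ZT8 samples, a difference of -2.29 ± 0.58 (SE, limma adjusted p = 0.0115) that was lost without ZT20 sample 3 or ZT8 sample 2 (adjusted p up to 0.0766). Gpcpd1, which hydrolyses glycerophosphocholine, had 8.96, 9.02 and 8.80 in the ZT20 samples, against 10.95, 11.22 and 11.03 in the ZT8 samples and fell 4.4-fold. Nrg4, a secreted ligand of ErbB receptors, had 6.39, 6.85 and 6.91 in the ZT20 samples, against 8.53, 8.35 and 9.04 in the ZT8 samples and fell 3.79-fold. Gnat1, known as the transducin subunit of rod photoreceptors, was dim, with 5.14, 6.02 and 5.23 in the ZT20 samples, against 7.58, 6.96 and 7.40 in the ZT8 samples. Its difference was -1.85 ± 0.22 (SE), or -1.16 with an offset of 64. Gpcpd1 and Chka, both of choline phospholipid metabolism, moved in opposite directions.

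Genes of fatty acid synthesis were called in 5 of 27 cases (18.5%), 4 higher and 1 lower, with a list median of 0.12. Elovl3, a fatty acid elongase, had 12.76, 12.88 and 12.47 in the ZT20 samples, against 10.37, 10.33 and 10.66 in the ZT8 samples and rose 4.76-fold, a difference of 2.25 ± 0.15 (SE, limma adjusted p = 3.41e-12). Acacb, which makes the malonyl-CoA that restrains fatty acid oxidation, had 9.23, 10.03 and 9.89 in the ZT20 samples, against 8.20, 7.99 and 8.82 in the ZT8 samples and rose by 1.38 ± 0.23 (SE). Srebf1, the gene of the lipogenic factor SREBP1, moved against them with 9.79, 10.28 and 10.01 in the ZT20 samples, against 11.11, 10.80 and 10.88 in the ZT8 samples, a difference of -0.90 ± 0.14 (SE, limma adjusted p = 6.05e-05). Scd1, the desaturase that makes oleate, had 12.79, 13.30 and 13.19 in the ZT20 samples, against 12.68, 11.33 and 12.95 in the ZT8 samples. ZT8 sample 2 was far below the other ZT8 samples, ZT8 sample 3 lay above ZT20 sample 1, and the call was lost without ZT20 sample 2 or 3 or ZT8 sample 2 (adjusted p up to 0.467). Elovl5, a further elongase, had the same low ZT8 sample 2 (12.19, 12.59 and 12.58 in the ZT20 samples, against 11.96, 11.21 and 12.13 in the ZT8 samples), and its call was lost without ZT20 sample 2 or 3 or ZT8 sample 2 (adjusted p up to 0.304). Leaving out 1 of these 3 arrays at a time left 2 genes of the list that rose. Fasn, fatty acid synthase, differed by 0.15 ± 0.24 (-0.155 without ZT8 sample 2) and Acaca by 0.26 ± 0.17 (SE), and neither was called.

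Cholesterol synthesis had 4 of 20 genes called (20.0%), 3 higher and 1 lower, with a median of 0.21. Pmvk, phosphomevalonate kinase, had 8.55, 9.05 and 8.85 in the ZT20 samples, against 7.75, 7.68 and 7.62 in the ZT8 samples and rose 2.2-fold. Hmgcs1, which makes the substrate of HMG-CoA reductase, had 11.35, 11.57 and 11.67 in the ZT20 samples, against 10.83, 10.87 and 11.06 in the ZT8 samples, a rise of 0.61 ± 0.15 (SE) that was lost without ZT20 sample 3 or ZT8 sample 2 (adjusted p up to 0.0711), when 2 members rose. Srebf2, the gene of the sterol factor SREBP2, rose by 0.38 ± 0.079 (SE). Mvk, mevalonate kinase, the step before Pmvk, had 8.06, 8.25 and 8.09 in the ZT20 samples, against 8.58, 8.78 and 8.54 in the ZT8 samples and fell by 0.50 ± 0.14 (SE), a call lost without ZT20 sample 1 or 3 or ZT8 sample 2 (adjusted p up to 0.139). Neighbouring kinases of the pathway therefore differed in opposite directions.

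Lipid droplet genes were called in 6 of 21 cases (28.6%), 4 higher and 2 lower. The perilipin coat genes Plin2, Plin4 and Plin5 rose, while the droplet proteins Cideb (-0.13 ± 0.091) and Cidec (0.60 ± 0.49, SE) were not called. Plin5 had 9.01, 8.94 and 9.01 in the ZT20 samples, against 7.72, 7.83 and 7.79 in the ZT8 samples and rose 2.3-fold (limma adjusted p = 4.86e-09), with no overlap and little spread. Plin2 had 11.80, 11.82 and 11.92 in the ZT20 samples, against 11.45, 11.17 and 11.47 in the ZT8 samples, a rise of 0.49 ± 0.10 (SE). Plin4 had 8.18, 7.80 and 8.04 in the ZT20 samples, against 7.10, 6.91 and 6.91 in the ZT8 samples, a rise of 1.03 ± 0.27 (SE) that was lost without ZT20 sample 1 or 3 or ZT8 sample 2 or 3 (adjusted p up to 0.0812). None of the 3 called coat genes had overlapping groups, which was also so for 939 of the 959 called genes. G0s2, an inhibitor of the lipase ATGL, had 10.50, 9.97 and 10.53 in the ZT20 samples, against 9.69, 8.76 and 9.18 in the ZT8 samples, a rise of 1.12 ± 0.31 (SE) that was lost without ZT20 sample 1 or 3 or ZT8 sample 2 or 3 (adjusted p up to 0.168). The lipase genes fell: Pnpla2, which encodes ATGL, by 0.39 ± 0.12 (SE) and Lipe, hormone-sensitive lipase, by 0.50 ± 0.11 (SE). Without ZT20 sample 1 or 3, or ZT8 sample 2 or 3, the count of droplet genes that rose was 2. The call of Pnpla2 was lost without any 1 of the 6 arrays (adjusted p up to 0.185), which left 1 gene that fell.

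Fatty acid oxidation showed fewer calls, 3 of 36 (8.33%), close to the 6.87% of all genes. Acot1, a thioesterase, had 7.10, 7.17 and 7.39 in the ZT20 samples, against 6.44, 5.51 and 6.35 in the ZT8 samples. Crat, carnitine acetyltransferase, had 10.25, 10.28 and 10.54 in the ZT20 samples, against 9.51, 8.97 and 9.73 in the ZT8 samples. Both rose, by 1.12 ± 0.25 and 0.96 ± 0.23 (SE), and both calls were lost without ZT8 sample 2 (adjusted p = 0.0677 and 0.0836 in limma), when 0 members were called higher. Bdh1, a ketone body dehydrogenase, fell by 0.30 ± 0.093 (SE), a call lost without ZT20 sample 1 or 2 or ZT8 sample 1, 2 or 3 (adjusted p up to 0.219). Ppara, the receptor that drives this pathway, differed by -0.37 ± 0.12 and Cpt1a, which admits fatty acids to mitochondria, by -0.22 ± 0.084 (SE), and neither was called.

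**Figure D3:**
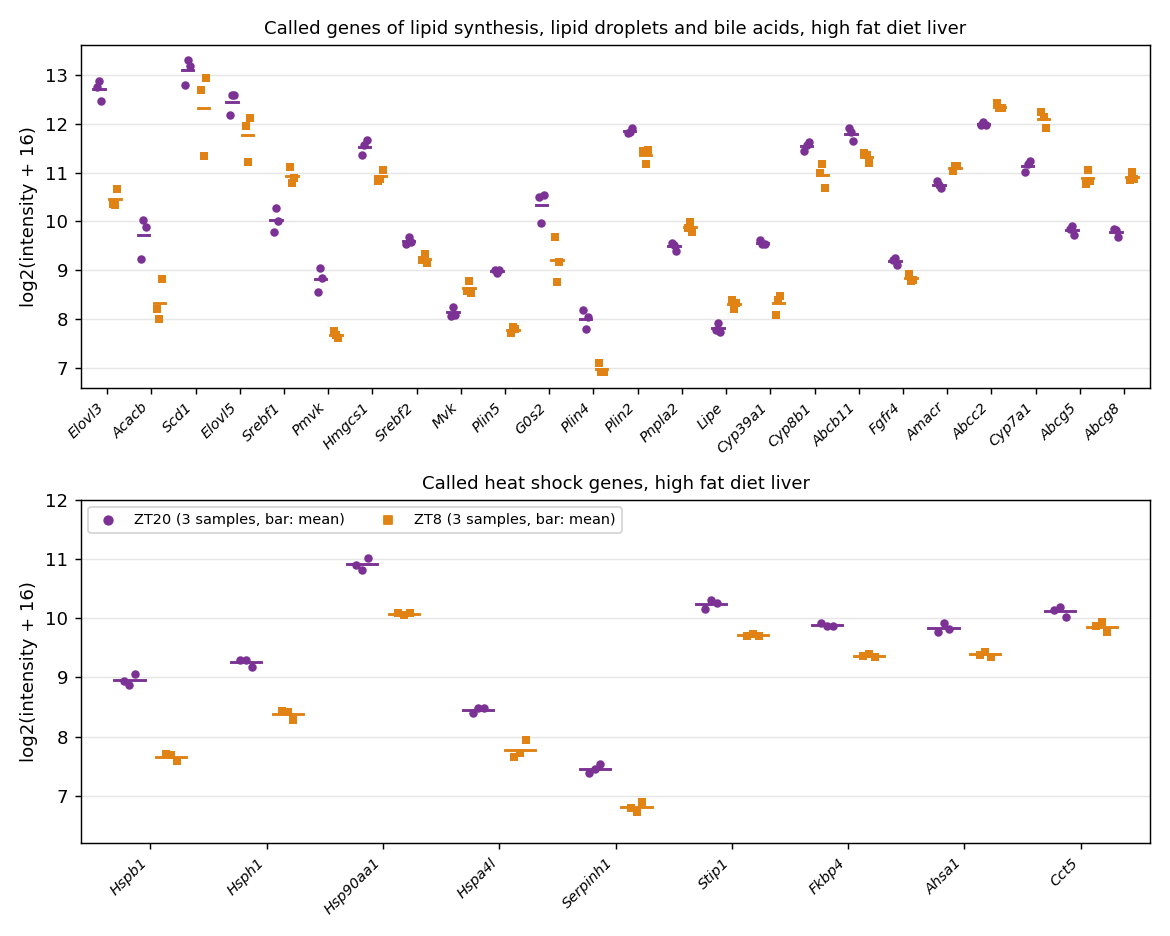
Log2 levels (y axis, log2 of intensity plus 16) of the called genes of fatty acid and cholesterol synthesis, lipid droplets and bile acids (top) and of the called heat shock genes (bottom) in the 3 ZT20 samples (purple circles) and the 3 ZT8 samples (orange squares) on high fat diet, with bars at the group means. ZT8 sample 2 is the lowest of its group for Scd1 and Elovl5, and the heat shock genes lie higher at ZT20 with narrow spread.

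Of 30 genes of bile acid synthesis and transport 9 (30%) were called, 4 higher and 5 lower. Cyp7a1, the rate-limiting enzyme of the classic pathway, had 11.01, 11.17 and 11.23 in the ZT20 samples, against 12.25, 12.14 and 11.92 in the ZT8 samples, a difference of -0.96 ± 0.16 (SE, limma adjusted p = 0.000115). Abcg5 and Abcg8, the paired subunits of the canalicular sterol exporter, fell by 1.06 ± 0.12 and 1.13 ± 0.14 (SE). Abcg8 had 9.84, 9.83 and 9.67 in the ZT20 samples, against 10.84, 11.01 and 10.87 in the ZT8 samples. Abcc2, a canalicular exporter of conjugates, fell by 0.36 ± 0.077 (SE). Cyp39a1, a hydroxylase of oxysterols, had 9.61, 9.54 and 9.54 in the ZT20 samples, against 8.09, 8.39 and 8.48 in the ZT8 samples and rose by 1.24 ± 0.22 (SE). Cyp8b1, which sets the share of cholic acid, had 11.43, 11.57 and 11.63 in the ZT20 samples, against 11.00, 11.17 and 10.68 in the ZT8 samples, a rise of 0.60 ± 0.13 (SE). Abcb11, the bile salt export pump, rose by 0.48 ± 0.11 (SE), and Fgfr4, the receptor for the intestinal signal FGF15, by 0.35 ± 0.09 (SE), a call lost without ZT20 sample 1 or 2 or ZT8 sample 2 or 3 (adjusted p up to 0.068). Amacr, a racemase of side chain shortening, fell by 0.35 ± 0.092 (SE), a call lost without ZT20 sample 3 or ZT8 sample 2 or 3 (adjusted p up to 0.0887). The classic first enzyme and the sterol exporter were thus lower at ZT20 while Cyp8b1 and the bile salt pump were higher.

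Among 24 genes of the insulin and feeding response 5 (20.8%) were called, 3 higher and 2 lower. Insig2, which retains SREBP precursors in the endoplasmic reticulum, had 12.16, 12.17 and 12.18 in the ZT20 samples, against 10.51, 10.32 and 10.91 in the ZT8 samples and rose 3.01-fold (limma adjusted p = 1.72e-09). The ZT20 samples were almost identical and the ZT8 samples all lower. Irs1, an insulin receptor substrate, had 8.55, 8.65 and 8.49 in the ZT20 samples, against 8.27, 8.17 and 8.09 in the ZT8 samples, a rise of 0.39 ± 0.11 (SE), a call lost without ZT20 sample 1 or 2 or ZT8 sample 2 or 3 (adjusted p up to 0.0945). The call of Irs1 was also lost when the mean of its probe sets stood in place of the brightest one. Foxo3, a forkhead factor restrained by insulin, fell by 0.58 ± 0.093 (SE), and Sik1, a kinase induced by cyclic AMP, had 7.94, 7.97 and 8.09 in the ZT20 samples, against 8.78, 8.47 and 9.15 in the ZT8 samples, a difference of -0.80 ± 0.21 (SE), a call lost without ZT20 sample 1 or ZT8 sample 3 (adjusted p up to 0.124). Ppp1r3b, which binds protein phosphatase 1 to liver glycogen, rose by 0.51 ± 0.16 (SE), a call lost without ZT20 sample 1, 2 or 3 or ZT8 sample 2 or 3 (adjusted p up to 0.264). The count that rose was 1 without ZT20 sample 1 or 2 or ZT8 sample 2 or 3.

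Glucose handling had calls in both directions. In glycolysis and fructose use 5 of 15 genes (33.3%) were called, 2 higher and 3 lower. Pfkfb3, which makes an activator of phosphofructokinase, had 6.65, 6.96 and 6.78 in the ZT20 samples, against 7.95, 8.41 and 7.92 in the ZT8 samples, a difference of -1.30 ± 0.23 (SE). Slc2a5, the fructose transporter, fell by 0.95 ± 0.15 (SE), and Slc2a2, the main hepatocyte glucose transporter, by 0.38 ± 0.11 (SE), a call lost without any 1 of the 6 arrays (adjusted p up to 0.13). Pfkl, liver phosphofructokinase, rose by 0.28 ± 0.081 (SE), a call lost without ZT20 sample 1 or ZT8 sample 1 or 3 (adjusted p up to 0.178). Pgk1, phosphoglycerate kinase, rose by 0.21 ± 0.066 (SE), a call that was lost without any 1 of the 6 arrays (adjusted p up to 0.183). In gluconeogenesis and fuel choice 4 of 19 (21.1%) were called, 2 in each direction. Pdk4, which shuts pyruvate dehydrogenase, had 7.98, 8.71 and 8.96 in the ZT20 samples, against 6.75, 6.10 and 7.30 in the ZT8 samples, a rise of 1.83 ± 0.37 (SE, limma adjusted p = 0.00127), while its paralog Pdk2 fell by 0.40 ± 0.088 (SE). Ppargc1b, a coactivator, had 6.83, 7.15 and 7.03 in the ZT20 samples, against 7.67, 7.83 and 7.71 in the ZT8 samples and fell by 0.74 ± 0.14 (SE). Pcx, pyruvate carboxylase, rose by 0.31 ± 0.088 (SE), a call lost without ZT20 sample 1 or 3 or ZT8 sample 2 or 3 (adjusted p up to 0.151). Pck1 and G6pc, the classic gluconeogenic enzymes, differed by -0.42 ± 0.18 and -0.15 ± 0.14 (SE) and were not called.

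Glycogen genes were called in 5 of 15 cases (33.3%), 3 higher and 2 lower, including Ppp1r3c and Ppp1r3b above. These counts rested on single arrays, with 1 higher and 4 lower without ZT20 sample 2, 1 and 1 without ZT8 sample 2, 1 and 2 without ZT8 sample 3, and 2 and 1 without ZT20 sample 1 or 3. Gys2, liver glycogen synthase, had 10.91, 11.09 and 11.18 in the ZT20 samples, against 11.67, 11.64 and 11.76 in the ZT8 samples and fell by 0.63 ± 0.10 (SE, limma adjusted p = 0.00014). Pygl, liver glycogen phosphorylase, rose by 0.27 ± 0.073 (SE), a call lost without ZT20 sample 2 or ZT8 sample 2 or 3 (adjusted p up to 0.137). Phka2, a subunit of phosphorylase kinase, fell by 0.31 ± 0.083 (SE), a call lost without ZT20 sample 1 or 3 or ZT8 sample 2 (adjusted p up to 0.0858). The synthase and the phosphorylase genes lay on opposite sides, with the synthase lower at ZT20.

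Called heat shock genes lay on 1 side. Of the list, 9 of 25 (36%) were called, each of them higher at ZT20, against 3.17% of all genes, and the list median was 0.26, against -0.024 for all genes. Of the 25 differences 20 were positive. Leaving out single arrays gave 8 or 9. Hspb1, a small heat shock protein, had 8.94, 8.87 and 9.06 in the ZT20 samples, against 7.71, 7.68 and 7.59 in the ZT8 samples and rose 2.45-fold, a difference of 1.29 ± 0.20 (SE, limma adjusted p = 4.88e-05). Hsp90aa1, inducible HSP90, had 10.91, 10.82 and 11.02 in the ZT20 samples, against 10.09, 10.06 and 10.09 in the ZT8 samples, a rise of 0.84 ± 0.15 (SE). Hsph1, of the HSP110 family, had 9.29, 9.29 and 9.18 in the ZT20 samples, against 8.43, 8.42 and 8.28 in the ZT8 samples, a rise of 0.88 ± 0.21 (SE). The ZT8 values of these genes lay close together.

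Cochaperones of HSP90 were among the called genes. Stip1, which links HSP70 to HSP90, had 10.16, 10.30 and 10.26 in the ZT20 samples, against 9.70, 9.74 and 9.70 in the ZT8 samples, a rise of 0.53 ± 0.089 (SE). Fkbp4, an immunophilin, had 9.91, 9.87 and 9.87 in the ZT20 samples, against 9.36, 9.39 and 9.35 in the ZT8 samples, a rise of 0.52 ± 0.077 (SE). Ahsa1, an activator of the HSP90 ATPase, rose by 0.44 ± 0.082 (SE). Hspa4l, another HSP110 relative, rose by 0.69 ± 0.13, Serpinh1, a collagen chaperone, by 0.65 ± 0.13, and Cct5, a chaperonin subunit, by 0.26 ± 0.074 (SE), the last a call lost without ZT20 sample 1 or 2 or ZT8 sample 1 or 3 (adjusted p up to 0.142). Hspa1a, inducible HSP70, differed by 0.30 ± 0.15, Dnajb1 by 0.37 ± 0.13 and Hspa8, constitutive HSC70, by 0.13 ± 0.094 (SE), and none of these 3 was called. The Hspb1 window of RefSeq (GRCm38.p6) held 2 matches to the heat shock element core GAANNTTC, in capitals below, which 7.89% of all windows held on either strand.
Hspb1 promoter, chr5:135887669-135887968, plus strand: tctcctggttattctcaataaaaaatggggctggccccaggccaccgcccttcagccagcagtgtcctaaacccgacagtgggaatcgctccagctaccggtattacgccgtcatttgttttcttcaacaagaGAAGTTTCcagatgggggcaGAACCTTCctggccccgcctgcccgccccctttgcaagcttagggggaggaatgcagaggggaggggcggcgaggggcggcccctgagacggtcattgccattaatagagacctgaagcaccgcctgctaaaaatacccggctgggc
The core was in the windows of 3 of 8 heat shock genes that rose and of 8 of 14 that were not called, so its presence did not separate them.

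Other stress and protein lists had few or no calls, with shares near or below the 6.87% of all genes. Of 26 endoplasmic reticulum chaperone genes limma called 0, with 3 at an unadjusted p under 0.05, and the smallest p belonged to Sec24d (0.21 ± 0.084) and Manf (0.31 ± 0.13, SE). Of 32 ribosomal protein genes 0 were called, again with 3 at an unadjusted p under 0.05, and Rpl14 had -0.69 ± 0.25 (SE, adjusted p = 0.0917). Without ZT20 sample 2 the ribosomal list had 1 call. In the ATF4 list 2 of 24 (8.33%) were called: Atf5, a mitochondrial stress factor, had 9.57, 9.61 and 9.54 in the ZT20 samples, against 8.69, 8.41 and 8.66 in the ZT8 samples and rose by 0.99 ± 0.11 (SE), and Ddit4, an inhibitor of mTORC1, rose by 0.59 ± 0.16 (SE), a call lost without ZT20 sample 2 or 3 or ZT8 sample 3 (adjusted p up to 0.125). Proteasome genes had 2 of 31 (6.45%) called, Psmd11 (0.38 ± 0.074) and Psmd4 (0.34 ± 0.10, SE), the second a call lost without ZT20 sample 2 or 3 or ZT8 sample 2 or 3 (adjusted p up to 0.249). Respiratory chain genes had 1 of 40 (2.5%) called, Cox5a (0.32 ± 0.086, SE), a call lost without ZT20 sample 1 or 2 or ZT8 sample 3 (adjusted p up to 0.166).

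Ribosome biogenesis had 4 of 41 (9.76%) called, against 6.87% of all genes. Nop16 (0.60 ± 0.12) and Rrs1 (0.38 ± 0.12) were higher and Rrp9 (-0.26 ± 0.072) and Ubtf (-0.24 ± 0.073, SE) lower. The call of Rrs1 was lost without ZT20 sample 1, 2 or 3 or ZT8 sample 2 or 3 (adjusted p up to 0.277), the call of Rrp9 was lost without ZT20 sample 1 or 2 or ZT8 sample 2 or 3 (adjusted p up to 0.135) and the call of Ubtf was lost without ZT20 sample 1 or 3 or ZT8 sample 1 or 2 (adjusted p up to 0.183). In the cold-inducible list Rbm3, an RNA-binding protein that rises when cells cool, had 9.82, 9.87 and 9.82 in the ZT20 samples, against 10.21, 10.60 and 10.24 in the ZT8 samples, a difference of -0.51 ± 0.14 (SE), a call lost without ZT20 sample 1 or 3 or ZT8 sample 2 (adjusted p up to 0.159). It was the 1 gene of 17 (5.88%) called, against 3 without ZT20 sample 2. Cirbp, its relative, differed by -0.49 ± 0.16 (SE, limma adjusted p = 0.0519). Autophagy genes had 2 of 31 (6.45%) called, about the share of all genes. Lipa, lysosomal acid lipase, was higher by 0.46 ± 0.12 and Ulk1, the kinase that starts autophagy, lower with -0.40 ± 0.11 (SE). The call of Lipa was lost without ZT20 sample 2 or 3 or ZT8 sample 1 or 2 (adjusted p up to 0.131), and the call of Ulk1 was lost without ZT20 sample 1 or ZT8 sample 2 or 3 (adjusted p up to 0.119).

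In nucleotide metabolism 8 of 32 genes (25.0%) were called, 3 higher and 5 lower. Pnp, purine nucleoside phosphorylase, had 9.93, 9.97 and 9.70 in the ZT20 samples, against 9.16, 9.0 and 8.69 in the ZT8 samples and rose by 0.91 ± 0.14 (SE). Cda, cytidine deaminase, had 8.85, 8.82 and 9.08 in the ZT20 samples, against 7.75, 7.54 and 8.11 in the ZT8 samples and rose by 1.12 ± 0.18 (SE). The groups of both genes did not overlap, as in nearly all called genes (939 of 959). Nt5e, the ecto-nucleotidase CD73, rose by 0.97 ± 0.22 (SE). Ppat, which commits to purine synthesis, had 8.03, 8.21 and 7.82 in the ZT20 samples, against 8.58, 8.69 and 8.77 in the ZT8 samples and fell by 0.66 ± 0.11 (SE). Tk1 and Dck, salvage kinases, fell by 0.56 ± 0.15 and 0.47 ± 0.12, and Uox, urate oxidase, by 0.26 ± 0.076 (SE). The call of Tk1 was lost without ZT20 sample 1 or 3 or ZT8 sample 2 (adjusted p up to 0.131), the call of Dck was lost without ZT20 sample 1 or ZT8 sample 3 (adjusted p up to 0.154) and the call of Uox was lost without ZT20 sample 1 or 3 or ZT8 sample 1 or 3 (adjusted p up to 0.19). The count that fell was 2 without ZT20 sample 1 and 3 without ZT20 sample 3 or ZT8 sample 3.

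NAD synthesis had 6 of 26 genes (23.1%) called, 2 higher and 4 lower. Nmrk1, nicotinamide riboside kinase, had 8.47, 8.67 and 8.58 in the ZT20 samples, against 9.55, 9.65 and 9.98 in the ZT8 samples and fell 2.22-fold. Nadsyn1, NAD synthetase, fell by 0.41 ± 0.087 (SE), as did Nampt above, and Nmnat3 had a difference of -0.38 ± 0.11 (SE), a call lost without ZT20 sample 1 or 3 or ZT8 sample 2 or 3 (adjusted p up to 0.126). Naprt, which uses nicotinic acid, and Kynu, kynureninase, rose by 0.26 ± 0.08 and 0.29 ± 0.075 (SE). The call of Naprt was lost without ZT20 sample 1, 2 or 3 or ZT8 sample 2 or 3 (adjusted p up to 0.193), and the call of Kynu was lost without ZT20 sample 2 or ZT8 sample 1 or 2 (adjusted p up to 0.0824). The count that rose was 0 without ZT20 sample 2 or ZT8 sample 2, with 3 members at an unadjusted p under 0.05 in the full fit, and the count that fell was 2 without ZT20 sample 1 or ZT8 sample 3.

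Amino acid breakdown and the urea cycle had 3 of 35 genes (8.57%) called, each higher. Of all genes, 6.87% were called and 3.17% were called higher. Ddc, aromatic amino acid decarboxylase, had 10.09, 10.15 and 9.92 in the ZT20 samples, against 8.92, 9.05 and 8.54 in the ZT8 samples and rose 2.33-fold, and Asl, argininosuccinate lyase, rose by 0.28 ± 0.084 (SE), a call lost without ZT20 sample 1 or 2 or ZT8 sample 2 or 3 (adjusted p up to 0.226). With Kynu they made the 3, and without ZT20 sample 2 or ZT8 sample 2 only Ddc stayed called. Gldc, which cleaves glycine, had 10.96, 11.10 and 10.92 in the ZT20 samples, against 10.12, 10.06 and 10.07 in the ZT8 samples, a rise of 0.91 ± 0.081 (SE, limma adjusted p = 2.14e-09), and was the 1 of 24 one-carbon genes (4.17%) called. Glutathione genes had 2 of 29 (6.9%) called, about the share of all genes, Gpx4 (0.39 ± 0.11) and Gclc (0.40 ± 0.12, SE). The call of Gpx4 was lost without ZT20 sample 1 or 3 or ZT8 sample 2 or 3 (adjusted p up to 0.169), and the call of Gclc was lost without ZT20 sample 1, 2 or 3 or ZT8 sample 1 or 2 (adjusted p up to 0.132). Heme and iron genes had 2 of 24 (8.33%), close to the share of all genes, Cpox (0.28 ± 0.077) and Hjv (0.37 ± 0.11, SE). The call of Cpox was lost without ZT20 sample 1 or 3 or ZT8 sample 1 or 2 (adjusted p up to 0.0892), and the call of Hjv was lost without ZT20 sample 1, 2 or 3 or ZT8 sample 1, 2 or 3 (adjusted p up to 0.135).

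Among lists of hormone and drug response, of 24 targets and receptors of the xenobiotic sensors 3 (12.5%) fell: Rxra, the shared partner receptor, by 0.39 ± 0.086, Nr1i3, the receptor CAR, by 0.52 ± 0.14 and Cyp1a2, a drug-metabolising P450, by 0.65 ± 0.18 (SE). The list as a whole did not fall, with a median of 0.13 and positive differences in 15 of 24 genes. At an unadjusted p under 0.05 in limma, 4 members were higher and 4 lower. The call of Nr1i3 was lost without ZT20 sample 2 or 3 or ZT8 sample 1 or 2 (adjusted p up to 0.0932), and the call of Cyp1a2 was lost without ZT20 sample 3 or ZT8 sample 1 or 2 (adjusted p up to 0.165). The growth hormone list had 5 of 22 (22.7%) called, Elovl3, Bcl6, Stat5b (0.64 ± 0.11), Cyp4a12a (-0.42 ± 0.11) and Cyp4a12b (-0.40 ± 0.12, SE). The Cyp4a12 genes are near-identical, so their signals cannot be kept apart, and their calls were lost without ZT20 sample 1 or 3 or ZT8 sample 1 or 2 (adjusted p up to 0.124) for the first and lost without ZT20 sample 1 or 3 or ZT8 sample 1, 2 or 3 (adjusted p up to 0.169) for the second. The count of the list that fell was 0 without ZT20 sample 3 or ZT8 sample 2. Among 18 glucocorticoid targets 3 (16.7%) were called, Per1 and Gadd45a (-0.57 ± 0.13) lower and Zbtb16 (1.24 ± 0.29, SE) higher. The call of Gadd45a was lost without ZT20 sample 1 or ZT8 sample 1 (adjusted p up to 0.0913), and the call of Zbtb16 was lost without ZT20 sample 1 (adjusted p up to 0.0515).

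Interferon-stimulated genes had 3 of 22 (13.6%) called, each lower. Usp18, which dampens interferon signalling, had 7.91, 8.04 and 8.28 in the ZT20 samples, against 8.67, 8.91 and 8.82 in the ZT8 samples and fell by 0.72 ± 0.14 (SE). Psmb9, an immunoproteasome subunit, fell by 0.49 ± 0.13 and Ddx58, the sensor RIG-I, by 0.32 ± 0.097 (SE). The call of Psmb9 was lost without ZT20 sample 1 or ZT8 sample 1 or 2 (adjusted p up to 0.121), and the call of Ddx58 was lost without ZT20 sample 1 or 3 or ZT8 sample 2 or 3 (adjusted p up to 0.273). Fga, fibrinogen alpha, rose by 0.42 ± 0.097 (SE) as the 1 of 27 acute phase genes (3.7%) called, and the call was lost without ZT20 sample 2 (adjusted p up to 0.0546). In the cell cycle list Wee1, Ccne1 (-0.47 ± 0.10) and Ccnd1 (-0.59 ± 0.17, SE) fell, 3 of 25 (12.0%), and the call of Ccnd1 was lost without ZT20 sample 1 or 2 or ZT8 sample 1 or 3 (adjusted p up to 0.154). Foxa2, a liver pioneer factor, rose by 0.76 ± 0.19 (SE) and with Rxra made 2 of 15 hepatocyte identity genes (13.3%). Of 19 apolipoprotein and lipoprotein genes limma called 0, with 2 at an unadjusted p under 0.05, of which Apoa5 had 0.29 ± 0.099 (SE), and 1 was called without ZT8 sample 1.

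**Figure D4:**
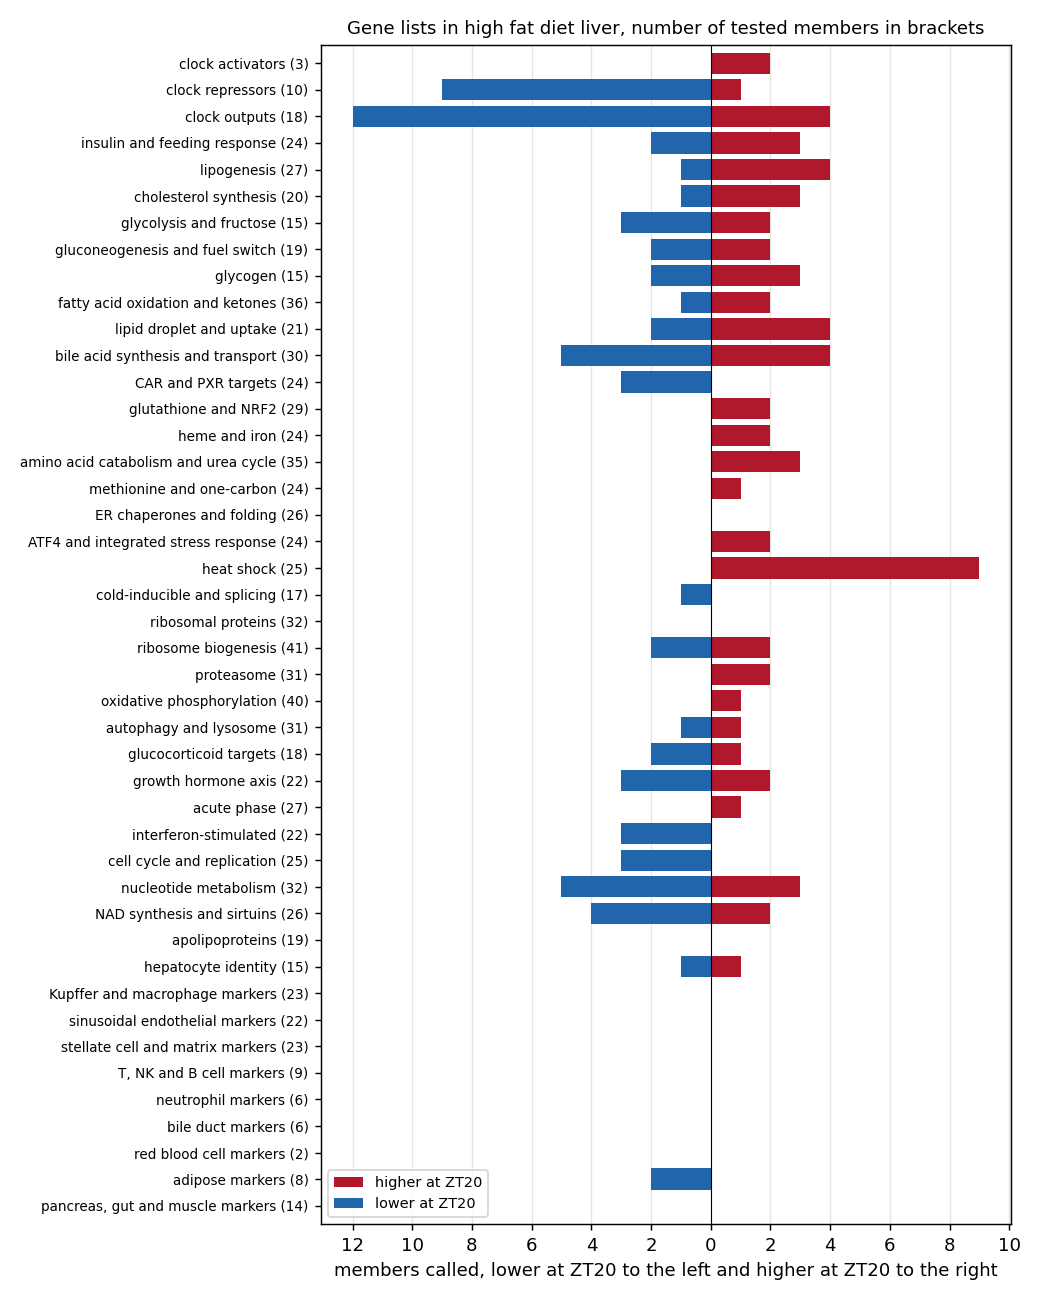
Number of members of each gene list (x axis, genes) called higher (red, to the right) or lower (blue, to the left) at ZT20 than at ZT8 in high fat diet liver, with the number of tested members in brackets. The clock outputs (16) and clock repressors (10) hold the most called genes, all 9 of the heat shock list lie on the higher side, and no marker list but the adipose one has a called gene.

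Markers of other cell types were not called except 2 lipase genes. Of 23 Kupffer cell and macrophage markers 0 were called, 3 had an unadjusted p under 0.05, and 2 of 23 differences were positive. Their summed intensity was 7261 to 8975 at ZT20 and 8858 to 11573 at ZT8. Sinusoidal endothelial markers had positive differences in 20 of 22 cases with 0 called and 3 at an unadjusted p under 0.05, and sums of 10291 to 10807 at ZT20 and 6957 to 10742 at ZT8, and 2 were called higher without ZT8 sample 3. Stellate cell and matrix markers had positive differences in 21 of 23 cases with 0 called and 1 at an unadjusted p under 0.05, and sums of 10949 to 13605 at ZT20 and 10067 to 11817 at ZT8. The part of these cells in the results was not tested.

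Limma called 0 of the 9 lymphocyte, 6 neutrophil, 6 bile duct, 2 red blood cell and 14 pancreas, gut and muscle markers, and at an unadjusted p under 0.05 the bile duct list had 2 and the others 0. The bile duct sums, 1650 to 2148 at ZT20 and 1124 to 1335 at ZT8, include Onecut1, a factor that hepatocytes also express. Onecut1 had 10.38, 9.48 and 9.88 in the ZT20 samples, against 8.85, 7.87 and 8.75 in the ZT8 samples. The median difference of the bile duct list was 0.05, and sums without Onecut1 were not taken. Lymphocyte sums were 1065 to 1230 at ZT20 and 1161 to 1308 at ZT8, and neutrophil sums were 717 to 873 at ZT20 and 780 to 832 at ZT8. Mmp8 and Klrb1c, of the neutrophil and lymphocyte lists, averaged under 16 units of intensity. Of 8 adipose markers 2 (25.0%) fell, the lipases Lipe and Pnpla2 described above.

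Whether the step differed between the diets was tested as the high fat diet step (ZT20 minus ZT8) minus the chow step in the same fit. Limma called 7 of 13956 genes (0.0502%), 5 (0.0358%) with a positive and 2 (0.0143%) with a negative value, and 1308 genes had an unadjusted p under 0.05. Of single arrays left out, that of ZT20 sample 3 on high fat diet gave 3 positive and 1 negative. Leaving out ZT20 sample 2, ZT8 sample 1 or ZT8 sample 2 on high fat diet, or ZT8 sample 2 on chow, gave 2 positive. Leaving out ZT20 sample 3 or ZT8 sample 3 on chow gave 3 positive, and leaving out ZT8 sample 3 on high fat diet or ZT20 sample 2 on chow gave 4 negative. Of the 7, 5 were also called within high fat diet liver. A gene that was not called is not shown to have the same step on both diets. In simulated data the test recovered 22% of genes whose steps differed by 0.5 and 88% of those that differed by 1. Each simulated gene had equal scatter in all arrays and no group differences but the simulated steps. These shares therefore need not hold in the real data, where Spon2, whose steps differed by 1.31, was not called (limma adjusted p = 0.118).

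Arrdc3, an arrestin family gene linked to energy expenditure, had the largest value. On high fat diet it had 10.49, 11.03 and 10.76 in the ZT20 samples, against 10.77, 11.12 and 10.68 in the ZT8 samples, a step of -0.092 ± 0.24 (SE) with overlapping groups. On chow it had 9.15, 8.60 and 8.07 in the ZT20 samples, against 11.40, 10.94 and 10.96 in the ZT8 samples, a step of -2.50 ± 0.24 (SE). The difference between the steps was 2.41 ± 0.34 (SE, limma adjusted p = 0.000953), and it stayed called without any single array.

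Mtnr1a, a melatonin receptor, had 7.91, 8.03 and 8.09 in the ZT20 samples, against 6.69, 6.70 and 7.21 in the ZT8 samples on high fat diet. On chow it had 6.40, 6.02 and 5.69 in the ZT20 samples, against 6.17, 6.54 and 6.42 in the ZT8 samples. The ZT8 samples were the low ones on high fat diet, and the chow groups overlapped. The steps were 1.14 on high fat diet and -0.34 on chow and differed by 1.48 ± 0.25 (SE, limma adjusted p = 0.00687). Its ZT8 mean of 6.87 was a low point between 8.05 at ZT4 and 7.67 at ZT12 on high fat diet, while on chow the 6 group means ran from 5.94 to 6.78. Per2 was the clock gene in this set. On chow it had 8.37, 8.29 and 8.73 in the ZT20 samples, against 8.53, 8.36 and 8.50 in the ZT8 samples, a step of 0.0011 with overlapping groups, beside -1.11 on high fat diet. The steps differed by -1.11 ± 0.19 (SE, limma adjusted p = 0.00687). Its group means on high fat diet were highest at ZT8 (9.11) and on chow at ZT16 (9.20).

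Elovl3, Insig2 and Trim2 had positive steps on both diets, and larger ones on high fat diet. Elovl3 had a step of 2.25 on high fat diet and 1.09 on chow, a difference of 1.16 ± 0.21 (SE, limma adjusted p = 0.011). Insig2 had steps of 1.59 on high fat diet and 0.53 on chow, which differed by 1.06 ± 0.20 (SE, limma adjusted p = 0.0182). Trim2, a ubiquitin ligase, had 8.64, 8.84 and 8.80 in the ZT20 samples, against 7.52, 7.45 and 7.76 in the ZT8 samples on high fat diet. Its steps of 1.18 on high fat diet and 0.41 on chow differed by 0.77 ± 0.15 (SE, limma adjusted p = 0.0317). Each of the 3 had its lowest group mean at ZT8 on high fat diet and at ZT12 on chow. For Elovl3 these means were 10.45 on high fat diet and 10.54 on chow, and for Insig2 10.58 on high fat diet and 10.18 on chow. The call of Elovl3 was lost without ZT20 sample 2, ZT8 sample 1 or ZT8 sample 2 on high fat diet or ZT8 sample 2 or 3 on chow, with an adjusted p up to 0.0677. The call of Insig2 was lost without ZT20 sample 2 or 3 or ZT8 sample 1 or 2 on high fat diet or ZT20 sample 3 or ZT8 sample 2 on chow (adjusted p up to 0.106). The call of Trim2 was lost in the same 6 cases and without ZT8 sample 3 on chow (adjusted p up to 0.155).

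Rpp38, a subunit of RNase P, had 8.27, 8.34 and 8.14 in the ZT20 samples, against 8.42, 8.55 and 8.57 in the ZT8 samples on high fat diet, a step of -0.27 ± 0.11 (SE) that was not called. On chow it had 8.84, 8.69 and 8.77 in the ZT20 samples, against 8.13, 8.22 and 8.17 in the ZT8 samples, so that the ZT20 samples were the higher ones. The steps differed by -0.86 ± 0.15 (SE, limma adjusted p = 0.0102), and the call was lost without ZT20 sample 3 on high fat diet (adjusted p = 0.0589). The nearest gene below the threshold was G6pc, whose step was -0.15 on high fat diet and 0.84 on chow (difference -0.99 ± 0.20, SE, adjusted p = 0.0566). Cyp7a1 followed with -0.96 on high fat diet and 0.037 on chow (adjusted p = 0.118).

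**Figure D5:**
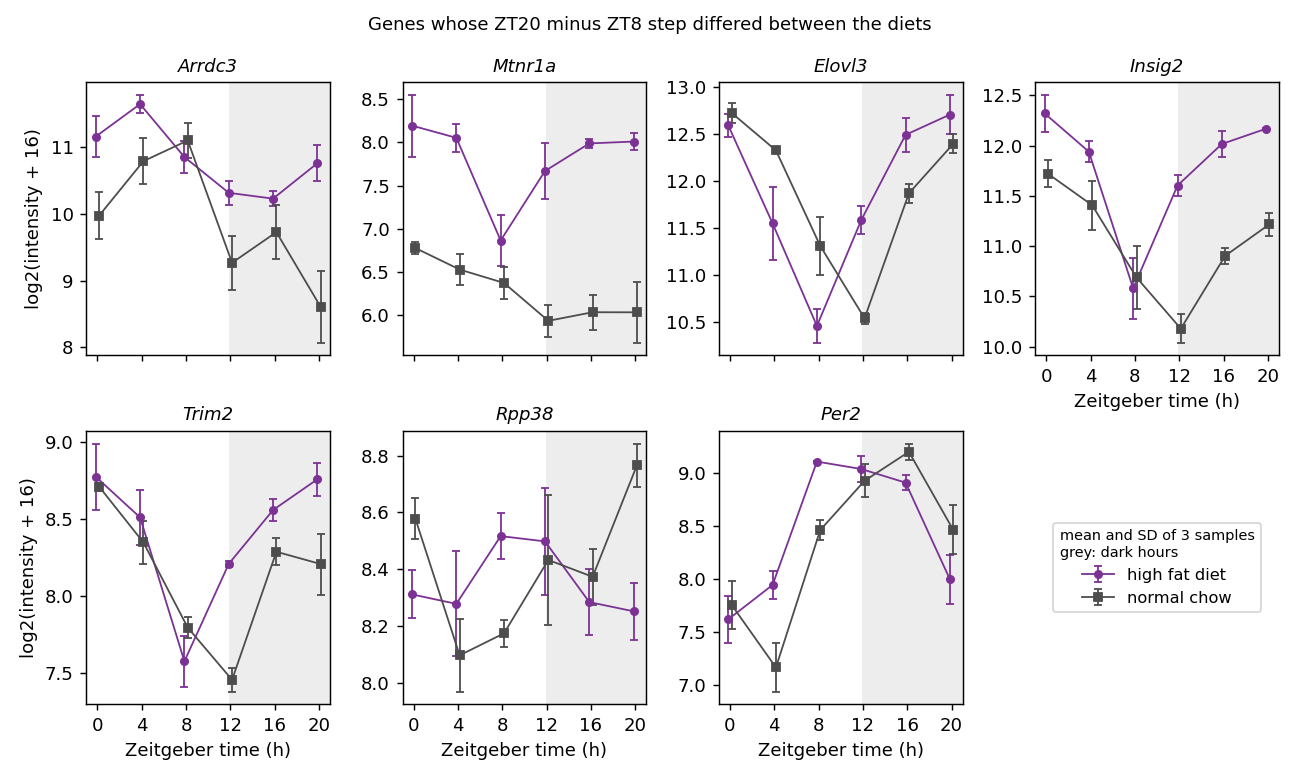
Group means with SD (n = 3) of the 7 genes whose ZT20 minus ZT8 step differed between the diets (y axis, log2 of intensity plus 16) over the 6 times (x axis, Zeitgeber time in h), with high fat diet in purple, chow in grey and dark hours shaded. Elovl3, Insig2 and Trim2 are lowest at ZT8 on high fat diet and at ZT12 on chow, and Per2 falls between ZT8 and ZT20 on high fat diet while the chow means at these times are level.

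Some large differences were not called, although the groups of each gene named here did not overlap, as for 22.3% of all genes. Moxd1, a monooxygenase-like gene, had 9.26, 10.62 and 8.00 in the ZT20 samples, against 11.34, 12.49 and 11.10 in the ZT8 samples, a difference of -2.35 ± 1.19 (SE, limma adjusted p = 0.288). Cyp2b9, a P450 with close paralogs whose signal may be shared, had 9.65, 8.35 and 10.22 in the ZT20 samples, against 8.02, 5.84 and 7.90 in the ZT8 samples, a difference of 2.15 ± 0.95 (SE, adjusted p = 0.202). Cish, a target of growth hormone signalling, had 8.73, 8.11 and 8.71 in the ZT20 samples, against 6.74, 6.27 and 6.81 in the ZT8 samples, a difference of 1.91 ± 0.66 (SE, adjusted p = 0.0823). Cyp4a14, an omega-hydroxylase, and Onecut1, a liver transcription factor, differed by 1.57 ± 0.63 and 1.43 ± 0.55 (SE), again without a call.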

How the data were processed

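Liver RNA of 36 mouse samples was measured on Affymetrix whole-transcript arrays. The deposited values are intensities on a linear scale, made by the authors with Affymetrix Expression Console 1.1.1 and PLIER 2.0, per the submitters' processing notes. How background was corrected and arrays were scaled to each other is not given in the sources used here. No value was taken from another series, and no 2 arrays held identical values. Array medians of the deposited intensity ran from 75.7 to 95.6, and the number of arrays, 3 per group, limits the precision. The median standard error of the step was 0.11 on the log2 scale.

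Of 35556 probe sets, 21789 were paired with 1 gene in the platform annotation, 1621 with several and 12146 were not listed. Symbols were updated through RefSeq gene IDs, and 99.6% matched. The brightest probe set stood for each of the 999 genes with more than 1 probe set. Genes at or below the 30th percentile of mean intensity (6.11 on the log2 scale) were left out, which kept 13956 of 19938 genes and 915 of 1066 listed symbols. Log2 of intensity plus 16 was fitted with limma 3.58.1 in R 4.3.3, with 12 group means over 36 arrays and 24 residual degrees of freedom. Contrasts were ZT20 minus ZT8 on high fat diet, and that step minus the chow step. P-values were adjusted by Benjamini-Hochberg over all 13956 genes, with a threshold of 0.05.

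The comparison, its gene lists and their members were chosen with earlier results of these data known. Named genes were the 12 largest called differences each way with no overlap between groups, up to 4 called genes of each of 44 lists by smallest p or the 2 with the smallest p where none was called, all core clock genes, and up to 8 genes each way for the difference between the diets. Other named genes were chosen after their values were seen, among them the further called members of the lists, uncalled pathway genes and the largest uncalled differences.

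Same-numbered ZT20 and ZT8 samples did not deviate together (correlations of 0.047, -0.332 and 0.041 for numbers 1, 2 and 3), so the numbers were not taken as pairs. In simulated data on 13956 genes the high fat diet contrast recovered 12%, 64%, 98% and 100% of 50 genes at each of the log2 steps 0.25, 0.5, 1 and 2, with 5 false calls. The difference between the diets recovered 2%, 22%, 88% and 98% at the same sizes, with 6 false calls. Each simulated gene had normal scatter of the size fitted to it, alike in all arrays, and no group differences but these steps. The real arrays had unequal weights and few genes called between the diets, so recovery in the real data may be lower. Alternatives changed the offset, the filter, the scaling, the choice of probe set, the arrays in the fit, the variance prior, array weights, a replicate block, the threshold and single arrays.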

Additional observations from a re-analysis of the deposited data

Results flagged for a closer look

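In all, 7 genes had a ZT20 minus ZT8 step that differed between high fat diet and chow by limma's test of that difference (adjusted p under 0.05 over all genes). The high fat diet step exceeded the chow step by 2.41 for Arrdc3, 1.48 for Mtnr1a, 1.16 for Elovl3, 1.06 for Insig2 and 0.77 for Trim2. It was below the chow step for Per2, by a difference of -1.11, and for Rpp38, by a difference of -0.86. For Mtnr1a, Elovl3, Insig2 and Trim2 all 3 high fat diet samples at ZT20 lay above all 3 at ZT8. For Per2 and Rpp38 all lay below, though the high fat diet step of Rpp38 was not called. For Arrdc3 the high fat diet groups overlapped, and the step lay in chow, where it was -2.50. Groups of 3 samples were not tested for samples that stand apart.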

How the results depend on the processing

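Of the genes chosen for naming, 139 were called between ZT20 and ZT8, of which 131 could be tested in all 20 alternatives and 8 in 19, since these fell below the stricter filter. None changed direction, 65 kept the call wherever tested, 74 lost it in at least 1 alternative (46 in 5 or more), and 26 of 41 named uncalled genes gained one in at least 1. With an offset of 64 the steps of Arntl, Bhlhe41, Ciart and Gnat1 moved by over 1.5-fold. The counts, 443 higher and 516 lower (5 and 2 for a positive and negative difference between the diets), moved more. With only the arrays compared they were 258 and 251 (1 and 0 between the diets, with limma, where 539 and 490 had an unadjusted p under 0.05). Array weights gave 958 and 1786 (124 and 79), an adjusted p under 0.01 gave 258 and 230 (2 and 1), and a change of at least 1.5-fold gave 155 and 129. Centring each array on its median gave 467 and 380 (4 and 1). Leaving out 1 array gave 283 to 413 higher and 258 to 565 lower, and 2 to 6 positive and 1 to 4 negative between the diets. The highest counts came without ZT8 sample 1 (413 higher), without ZT20 sample 2 (565 lower), and, for 6 positive, without ZT20 sample 1 on either diet or ZT20 sample 2 on chow. With the replicate block, whose numbers do not pair the samples, the counts were 447 and 513 (5 and 4). In deviations from the group mean, no ZT20 or ZT8 sample on high fat diet correlated best with its own number. Stricter thresholds leave fewer calls by construction, and the cause of the other shifts was not tested. Array weights were 0.386 for ZT20 sample 2, 3.614 for ZT20 sample 3 and 0.521 for ZT8 sample 3. Of the 41 named uncalled genes, 5 changed the sign of the high fat diet step when single arrays were left out. Their steps ran from -0.227 to 0.043 for Arrdc3 (0.043 without ZT20 sample 1, 0.04 without ZT8 sample 2), from -0.215 to 8e-04 for Ctrb1 (8e-04 without ZT20 sample 2) and from -0.0198 to 0.161 for Slc4a1 (-0.0198 without ZT8 sample 3). The range was -0.155 to 0.39 for Fasn (-0.155 without ZT8 sample 2) and -0.379 to 0.0304 for G6pc (0.0304 without ZT8 sample 3). Of the 7 genes that differed between the diets, Arrdc3 alone kept its call in all 25 alternatives.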
